A study of Homo sapiens with 12 samples.

Results

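The baseline transcriptome of an HuR knockdown line was compared with that of its control line in cells that had received no treatment. HuR is the RNA-binding protein encoded by ELAVL1. The comparison used 4 of the 12 RNA-seq libraries of a study on HuR under electrophile and oxidant stress: 2 libraries of HEK293T cells with a lentiviral hairpin against HuR (shHuR) and 2 of HEK293T cells with a control hairpin (shControl). Both lines had been infected with a pLKO vector, selected with puromycin and grown in the same medium, and none of the 4 cultures was given HNE (the lipid-derived electrophile 4-hydroxynonenal) or H2O2. The libraries of a line are biological replicates, by the series' design text. HEK293T is a human embryonic kidney line that carries the SV40 large T antigen. Each hairpin is represented by 1 selected population, so a difference caused by HuR, one caused by the hairpin's other targets and one that arose during selection cannot be told apart. The other 8 libraries, from both lines under HNE or H2O2, were not part of the contrast. They entered the choice of genes to test, the scaling of the libraries and the estimate of the spread between replicates.

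HuR binds uridine-rich and AU-rich stretches, mostly in the 3′ untranslated regions (UTRs) and introns of transcripts. It is best known for slowing the decay of short-lived messenger RNAs, among them those of cyclins, growth factors and immediate early genes, and it also takes part in splicing, polyadenylation and translation. A relative, ELAVL2, and the decay-promoting proteins KHSRP, HNRNPD and ZFP36L1 bind overlapping sets of sites.

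The hairpin's target in ELAVL1 is shown because it defines the treated line. Its 21 bases, read from the reference transcripts (GENCODE 29), matched transcripts of 1 gene only. They lie at chr19:7967669-7967689 on the minus strand of GRCh38, in the coding sequence of exon 5 of 6. In the target, capitals mark the bases that pair with guide bases 2 to 8, the seed of the guide. The same bases are in capitals in the guide strand.
ELAVL1 target: cccatcacagtgaAGTTTGCa
Guide strand: tGCAAACTtcactgtgatggg

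Total counts were 27116166 and 28292797 in the shControl libraries and 24855946 and 28647861 in the shHuR libraries, with 18057 to 18301 genes above 0. Of 23615 genes in the table, 16005 had enough counts to be tested. Of 14 genes chosen as marks of HEK293T cells, 13 reached 1 CPM (counts scaled to a common library size) in at least 1 of the 4 libraries. Their summed level was 1150 and 1132 CPM in shControl and 881 and 910.2 CPM in shHuR, with 2 members called higher and 5 lower. VIM, the most abundant, was at 488 and 470.1 CPM in shControl and 364 and 389 CPM in shHuR (log2 fold change -0.35, adjusted p = 0.0117). Markers of fibroblasts summed to 11.5 and 12.5 CPM in shControl and 15.3 and 15.6 CPM in shHuR. Those of blood summed to 8.23 and 7.19 against 8.59 and 9.10 CPM, with CD3E and HBB at 0 in all 4 libraries. Endothelial, squamous and hepatocyte markers summed to 0.651 to 4.93 CPM per library, with KRT5, KRT14, AFP and TTR at 0, and no marker of these 5 other cell types was called. The part of the marker shifts in the results that follow was not tested. In bulk RNA, fewer cells of a type and less RNA per cell cannot be told apart.

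ELAVL1 was measured first, as the check of the labels. It lies at chr19:7958579-8005659 on GRCh38 (minus strand, protein-coding). Its level was 90.5 and 86.0 CPM in shControl and 70.4 and 70.1 CPM in shHuR, replicate 1 before replicate 2 as throughout. Both shHuR libraries were below both shControl libraries, with a mean level 20.4% lower (log2 fold change -0.33, SE 0.0708, adjusted p = 0.0126, edgeR's quasi-likelihood test with Benjamini-Hochberg adjustment over all 16005 genes, used for every adjusted p given here). A level of RNA does not give the level of protein, and protein levels were not analysed here. With 2 libraries a side, an exact permutation test over the 4 libraries cannot give a two-sided p below 0.333, so each call rests on the spread estimated across genes and groups. Without any 1 of the 4 libraries the ELAVL1 difference was -0.29 to -0.36 and was no longer called (adjusted p = 0.0625 to 0.131). In all, 959 of the called genes changed by more than ELAVL1 itself on the log2 scale, 535 of them downward.

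Across the transcriptome 1277 of 16005 genes were called at an adjusted p under 0.05, which is 7.98% of those tested. Of these, 560 (3.5%) were higher in shHuR and 717 (4.48%) lower. Among them the median size of the change was 0.42 on the log2 scale. A change of at least 2-fold was seen in 61 of them, 29 upward and 32 downward, and one of at least 1.5-fold in 282. In all 1277 both libraries of one line lay above both of the other, as they did in 8947 genes in all (55.9% of those tested). The root mean square difference between libraries was 0.203 and 0.208 (log2) within the lines and 0.268 to 0.298 between them. How many genes were called depended strongly on single libraries. Without shHuR replicate 1 or 2 it was 641 or 255, and without shControl replicate 1 or 2 it was 268 or 242. The call was kept without each of the 12 libraries in turn by 159 genes (0.993% of those tested), 61 higher and 98 lower, with a median absolute change of 0.66. These 159 are referred to as stable calls. Levels written as 2 values against 2 others give the shControl libraries first, and a change written as a bare number is a log2 fold change.

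**Figure D1:**
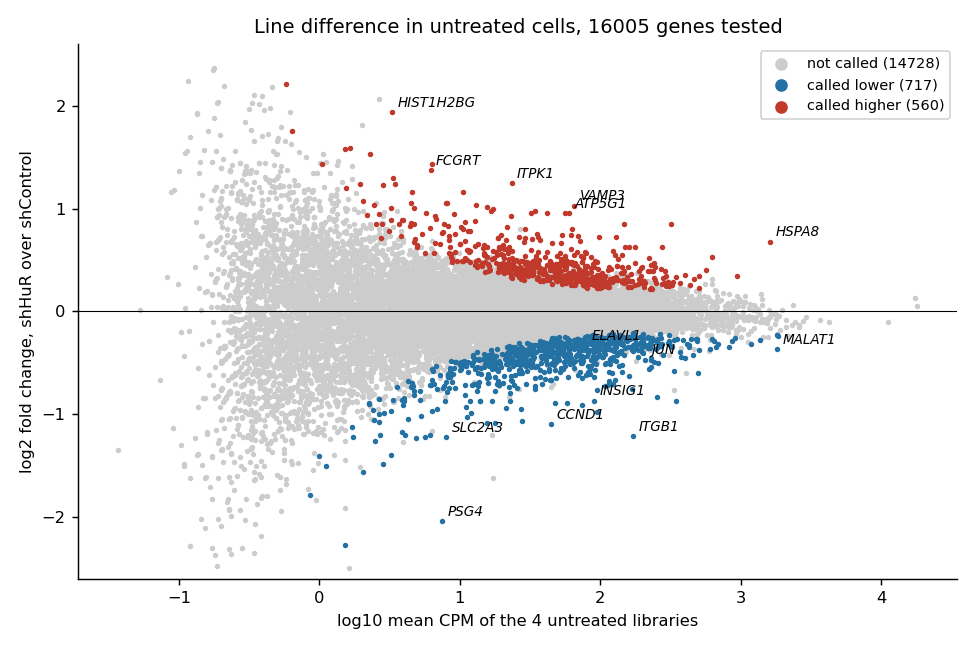
Log2 fold change of shHuR over shControl against the log10 mean CPM of the 4 untreated libraries, 1 point per gene tested. Red points mark the 560 called genes that rose, blue points the 717 that fell and grey points the rest; 37 genes beyond 2.6 in either direction, 6 of them called, and 3 genes at 0 in all 4 libraries are not drawn. The called genes spread on both sides of 0, and ELAVL1 lies near the inner edge of those that fell.

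The 12 largest falls and 12 largest rises were taken from called genes with at least 5 CPM in the higher line, separate lines and whole deposited counts. Larger called changes lay outside these limits. Below 5 CPM, DOK6 (-3.32) and JAKMIP2 (-3.09) were stable falls, and CHGB rose by 1.58. Among the 12 falls, those with the smallest adjusted p were the genes of a cell-matrix receptor subunit and of a cell cycle regulator. ITGB1, the beta 1 subunit shared by many integrins (chr10:32900319-33005792, GRCh38), was at 233 and 243 CPM in shControl and 106 and 98.8 CPM in shHuR (log2 fold change -1.21, SE 0.0857, adjusted p = 9.29e-06). The knockdown libraries thus held a mean level 56.9% lower than the control libraries, with a narrow spread on either side. CCND1, cyclin D1, which activates CDK4 and CDK6 in the G1 phase (chr11:69641087-69654474, GRCh38), was at 60.2 and 60.7 CPM in shControl and 27.6 and 28.7 CPM in shHuR (log2 fold change -1.10, SE 0.0854, adjusted p = 2.15e-05). Its mean was 53.3% lower. PSG4, a pregnancy-specific glycoprotein, had the steepest fall in this group, from 10.8 and 13.3 to 2.93 and 2.95 CPM (log2 fold change -2.04, adjusted p = 0.000167). PSG4 belongs to a family of near-identical genes of which it alone passed the filter, so its reads may be divided among copies. SLC2A3, the glucose transporter GLUT3, fell from 12.4 and 10.1 to 5.05 and 4.58 CPM (log2 fold change -1.22, adjusted p = 0.00277), and TRIM6, a ubiquitin ligase, from 8.60 and 8.48 to 3.62 and 3.77 CPM (log2 fold change -1.21, adjusted p = 0.00055). DHRS3, a retinal reductase, and ZC3H6, a CCCH zinc finger protein, fell too (-1.09 and -1.07). These 7 were stable calls. The other 5 were MGST1 (-1.22), a microsomal glutathione transferase, CEACAM1 (-1.20), an adhesion receptor, BHLHE40 (-1.08), a transcriptional repressor, MAPK15 (-1.23), an atypical MAP kinase, and DICER1-AS1 (-1.18). Each lost its call without at least 1 untreated library, with adjusted p up to 0.145. DICER1-AS1 lies next to DICER1 on the other strand, and whether counting used strand is not given in the sources used here.

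Among the rises, VAMP3, a vesicle SNARE of recycling endosomes (chr1:7771269-7781432, GRCh38), was at 41.5 and 44.2 CPM in shControl and 86.9 and 88.1 CPM in shHuR (log2 fold change 1.03, SE 0.072, adjusted p = 9.29e-06). Its 2 shHuR values were about equal and were both far above the shControl values. FCGRT, the heavy chain of the neonatal Fc receptor, rose from 3.12 and 3.76 to 9.89 and 8.01 CPM (log2 fold change 1.37, adjusted p = 0.00156). ITPK1, an inositol phosphate kinase, rose from 14.0 and 13.8 to 29.7 and 36.0 CPM (log2 fold change 1.25, adjusted p = 0.000341), and ADRA2C, an alpha 2 adrenergic receptor, from 6.51 and 6.41 to 13.5 and 15.4 CPM (log2 fold change 1.16, adjusted p = 0.000301). TXNIP, an arrestin-domain protein that binds thioredoxin and limits glucose uptake, was at 10.7 and 9.98 CPM in shControl and 21.0 and 20.9 CPM in shHuR (log2 fold change 1.02, adjusted p = 0.0002). KLB, the co-receptor beta-Klotho, and ACBD7, an acyl-CoA binding protein, rose by 1.05 and 1.03. The largest rise was that of the histone gene HIST1H2BG, from 1.40 and 1.32 to 5.98 and 4.48 CPM (log2 fold change 1.94, adjusted p = 0.00167), which has near-identical copies. These 8 were stable calls. RTN1 (1.16), a reticulon, NEFM (1.06), a neurofilament subunit, PHF15 (1.05) and RARG (1.00), a retinoic acid receptor, lost theirs without at least 1 untreated library, with adjusted p up to 0.188.

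**Figure D2:**
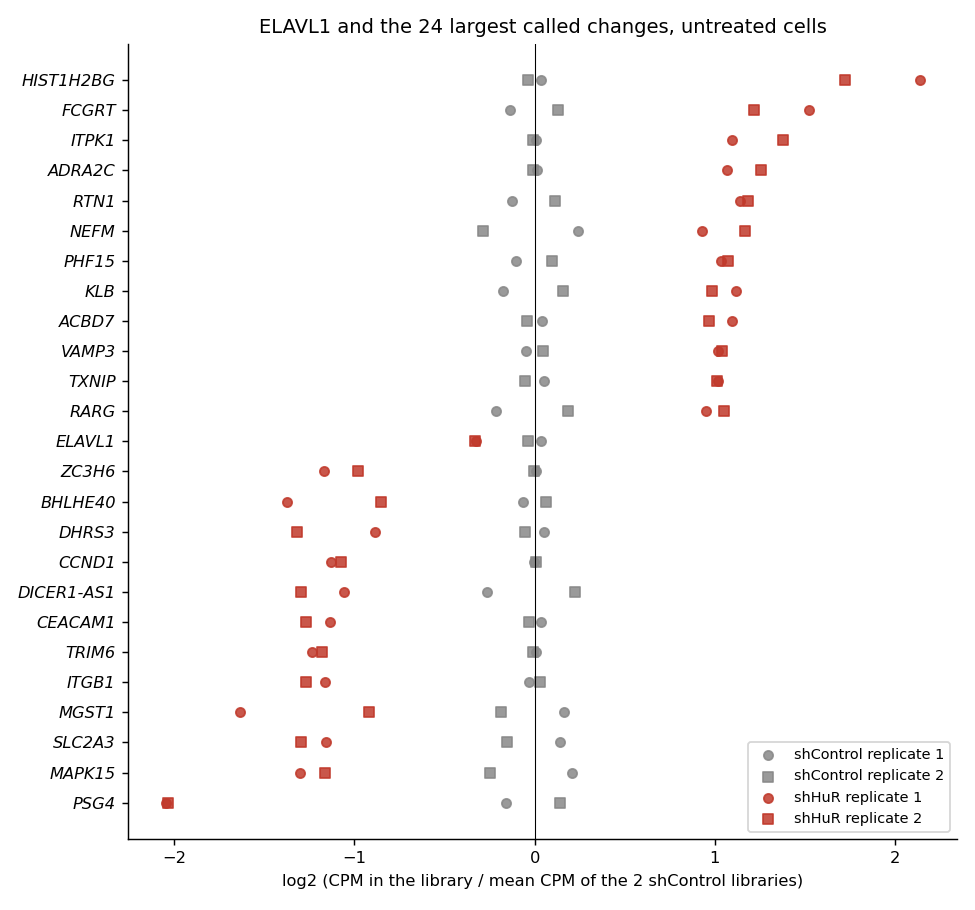
Log2 ratio of CPM in each of the 4 untreated libraries to the mean of the 2 shControl libraries. The genes are ELAVL1 and 12 rises and 12 falls. These were the largest among called genes with at least 5 CPM in the higher line, separate lines and whole deposited counts. Grey symbols are shControl and red symbols shHuR, with circles for replicate 1 and squares for replicate 2; in every gene the 2 colours are separate, and the shHuR points of ELAVL1 lie closer to 0 than those of the other 24 genes.

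Of 32 tested AU-rich element binding proteins, HuR itself included, 5 were called, 3 higher and 2 lower. The 2 lower were ELAVL1, the hairpin's own target, and ELAVL2. This is 15.6% of the list, beside 7.98% of all tested genes, the share against which the list shares in the text are to be read. DESeq2's Wald test called 9. The median of the list was -0.06, and -0.09 to 0.002 with 1 untreated library left out. ELAVL2, the other ELAVL family member with enough counts, was at 41.7 and 42.1 CPM in shControl and 29.5 and 24.0 CPM in shHuR (log2 fold change -0.65, SE 0.115, adjusted p = 0.00443). ELAVL3 and ELAVL4, the neuronal members, were at 0 to 5 counts per library and were not tested. KHSRP, which promotes decay, rose from 148 and 148 to 187 and 224 CPM (log2 fold change 0.47, adjusted p = 0.029), while HNRNPAB and FXR2 rose by 0.28 and 0.27. HNRNPD (AUF1) was at 78.7 and 85.4 CPM in shControl and 78.5 and 77.9 CPM in shHuR (adjusted p = 0.726), so that all 4 libraries lay within a narrow range. ZFP36L1 was at 6.98 and 6.80 against 5.94 and 6.65 CPM and TIA1, a stress granule protein, at 144 and 137 against 134 and 124 CPM (adjusted p = 0.734 and 0.29). Without shHuR replicate 1 or 2, 2 or 0 members of this list were called, and without either shControl library 1 was.

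Of 55 genes of the mRNA decay machinery, 4 were called higher and 1 lower, with a median of 0.11. This is 9.09% of the list, near the 7.98% of all tested genes, and DESeq2's Wald test called 8. The risers were SMG6, the nonsense-mediated decay endonuclease (42.6 and 43.0 against 54.5 and 60.0 CPM, log2 fold change 0.42, adjusted p = 0.00777), SMG5 (0.22), CNOT7, a deadenylase of the CCR4-NOT complex (91.9 and 84.2 against 115 and 112 CPM, log2 fold change 0.37, adjusted p = 0.0048), and DDX6, a decapping cofactor (0.28). PAN2, another deadenylase, fell (-0.32); its deposited counts include fractions of reads, so its level is uncertain. With shHuR replicate 1, shHuR replicate 2, shControl replicate 1 and shControl replicate 2 left out in turn, 2, 1, 1 and 0 of these genes were called. The RNA interference machinery, on which the hairpins draw in both lines, had 2 of 16 genes called (12.5%; 4 by DESeq2's Wald test). They were AGO4, an Argonaute (54.0 and 58.0 against 40.2 and 39.5 CPM, log2 fold change -0.49, adjusted p = 0.00205), and the hairpin-processing nuclease DICER1 (279 and 282 against 226 and 239 CPM, log2 fold change -0.27, adjusted p = 0.0213), both lower. AGO4 was called without each library.

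Messenger RNAs that other work has reported as bound by HuR did not share a direction. Of 44 tested, 5 were higher and 5 lower, ELAVL1 itself among the latter, 22.7% of the list beside 7.98% of all tested genes, with a median of -0.03 beside -0.00 for all tested genes. CCND1 and JUN, a subunit of the AP-1 transcription factor, were the stable calls. JUN was at 257 and 230.1 CPM in shControl and 181 and 169.7 CPM in shHuR (log2 fold change -0.47, adjusted p = 0.0012). VEGFA, the angiogenic growth factor, was at 82.4 and 83.5 CPM in shControl and 68.7 and 61.3 CPM in shHuR (log2 fold change -0.35, adjusted p = 0.0142), and the phosphatase gene CDC25A fell (-0.22). On the other side, CDKN1A, the cyclin-dependent kinase inhibitor p21, rose from 9.04 and 9.20 to 13.4 and 14.2 CPM (log2 fold change 0.60, adjusted p = 0.0105), ID1 by 0.52, the growth factor receptor IGF1R by 0.37 and STAT3 and ACTB by 0.35 and 0.35. ACTB has many processed pseudogenes, so its count is less certain. Without shHuR replicate 1, 7 of the 44 were called, and without any other untreated library 2 were.

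Of the lists with 10 or more genes tested, targets of the hypoxia response had the highest share of called genes in the fit of all 12 libraries, and nearly all of these were lower in shHuR, as were the called genes of glycolysis. Without shHuR replicate 2, shControl replicate 1 or shControl replicate 2 that order did not hold: 3, 2 and 2 of 31 hypoxia targets were called, and 4, 5 and 4 of 25 heat-shock factor targets. Of 26 glycolysis genes, 5 (19.2%) fell by the test and 0 rose, while 22 lay below 0; the list's median was -0.14. With an offset for transcript GC content and length in the fit, 9 were lower, with a median of -0.21. The fall was clearest in PDK1, the kinase that restrains pyruvate entry into mitochondria, at 138 and 145 CPM in shControl and 88.8 and 84.2 CPM in shHuR (log2 fold change -0.71, SE 0.09, adjusted p = 0.00048). Besides SLC2A3, the regulatory kinase PFKFB4 (33.6 and 30.5 against 20.3 and 23.0 CPM, log2 fold change -0.56, adjusted p = 0.034), LDHA, lactate dehydrogenase A (1276 and 1345 against 1052 and 1058 CPM, log2 fold change -0.31, adjusted p = 0.00774) and the phosphoglycerate kinase PGK1 (939 and 911 against 772 and 681 CPM, log2 fold change -0.35, adjusted p = 0.0119) were lower. GAPDH, by contrast, was at 1778 and 1686 CPM in shControl and 1677 and 1729.9 CPM in shHuR (adjusted p = 0.88), and its libraries overlapped.

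Of 31 targets of the hypoxia-inducible factors (HIF) outside glycolysis, 11 were lower and 1 higher, 38.7% of the list, with a median of -0.33 and 27 fold changes below 0. Without shHuR replicate 2 the median was -0.21. Both shHuR libraries lay below the shControl mean on this list, by medians of -0.21 and -0.36 on the log2(CPM + 1) scale, whereas replicates of the same line differed by medians of 0.07 (shHuR) and 0.01 (shControl). P4HA1, a collagen prolyl hydroxylase, was at 153 and 159 CPM in shControl and 103 and 93.5 CPM in shHuR (log2 fold change -0.66, SE 0.0928, adjusted p = 0.000929) and was a stable call. BHLHE40 was at 23.2 and 25.2 CPM in shControl and 9.32 and 13.4 CPM in shHuR, so that the shHuR libraries differed from each other but stayed below both control values. EGLN3, an oxygen-sensing prolyl hydroxylase that marks HIF for breakdown, fell from 18.9 and 20.4 to 11.8 and 12.4 CPM (log2 fold change -0.70, adjusted p = 0.00653), and BNIP3, a mitophagy receptor, from 145 and 146 to 104 and 88.4 CPM (log2 fold change -0.60, adjusted p = 0.00625). INSIG2, NDRG1, PLOD2, KDM3A, EGLN1, VEGFA and KDM4B were called with smaller falls, -0.46 to -0.28. EGLN2, a prolyl hydroxylase as well, went the other way (35.0 and 35.2 against 49.3 and 46.9 CPM, log2 fold change 0.45, adjusted p = 0.00747), with fractional counts. HIF1A itself was at 82.6 and 79.2 against 71.9 and 78.9 CPM (adjusted p = 0.559), and VHL at 259 and 265 against 243 and 233 CPM (adjusted p = 0.352). The calls among HIF targets numbered 8, 3, 2 and 2 without shHuR replicate 1, shHuR replicate 2, shControl replicate 1 and shControl replicate 2, and those among glycolysis genes 4, 2, 3 and 2.

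**Figure D3:**
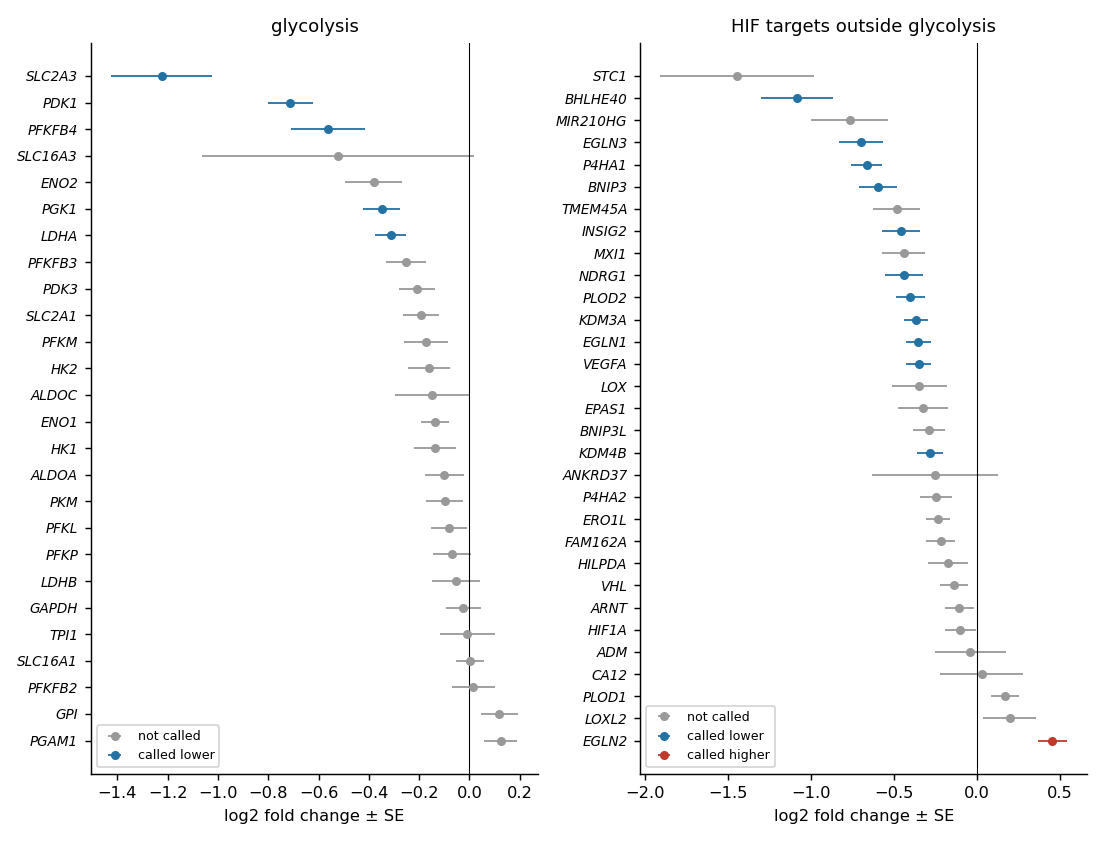
Log2 fold change of shHuR over shControl, with its standard error, for the 26 tested glycolysis genes (left) and the 31 tested HIF targets outside glycolysis (right). Blue points were called lower, red points higher and grey points were not called; 22 and 27 of the points lie below 0, and EGLN2 is the only red one.

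Cytosolic chaperones were among the higher genes. Of 25 heat-shock factor targets, 5 were higher and 2 lower (28% of the list), with a median of 0.13. HSPA8, the constitutive HSC70 chaperone and the most abundant of the stable risers named here, was at 1255 and 1239 CPM in shControl and 2051 and 1939 CPM in shHuR (log2 fold change 0.68, SE 0.0694, adjusted p = 0.000167). The inducible HSP70 gene HSPA1B was at 230.0 and 224 CPM in shControl and 411 and 407 CPM in shHuR (log2 fold change 0.85, adjusted p = 0.000285). Its near-identical copy HSPA1A was at 1.18 and 0.716 against 1.30 and 1.32 CPM (adjusted p = 0.514), so the division of reads between the pair is uncertain. DNAJB1, their J-domain partner, rose from 47.2 and 45.4 to 75.3 and 80.1 CPM (log2 fold change 0.75, adjusted p = 0.00026), SERPINH1, a collagen chaperone, from 60.2 and 62.7 to 87.9 and 89.3 CPM (log2 fold change 0.53, adjusted p = 0.00109), and DNAJA1 by 0.34. HSPE1, the mitochondrial chaperonin cofactor, fell from 199 and 218 to 165 and 155 CPM (log2 fold change -0.38, adjusted p = 0.00526), and HSPA4L fell as well (-0.32). HSP90AA1, the HSP90 alpha gene, was at 2233 and 2353 against 2493 and 2286 CPM (adjusted p = 0.764), with overlapping lines. HSPA8, HSPA1B, DNAJB1 and SERPINH1 were stable calls, and 4 to 6 members of the list were called without any 1 untreated library.

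Other stress programmes were examined before any treatment. In the NRF2 antioxidant pathway 3 of 30 genes (10%) were higher and 0 lower: EPHX1, an epoxide hydrolase (0.40), CBR1, a carbonyl reductase (0.39), and KEAP1, the adaptor that marks NRF2 for breakdown (60.1 and 56.8 against 74.0 and 72.3 CPM, log2 fold change 0.32, adjusted p = 0.0274). None was a stable call; 1 was called without shHuR replicate 1 and 0 without any other untreated library. NFE2L2, which encodes NRF2, was at 22.2 and 20.3 against 22.8 and 26.2 CPM and NQO1, a quinone reductase, at 4.52 and 5.08 against 7.12 and 5.80 CPM (adjusted p = 0.239 and 0.115). Of 35 ATF4 targets, 4 were higher and 2 lower, 17.1% of the list beside 7.98% of all tested genes, with a median of 0.05. The transcription factor genes ATF5 (6.32 and 7.44 against 10.5 and 12.7 CPM, log2 fold change 0.75, adjusted p = 0.00651) and CEBPB (0.65) rose and ATF3 (-0.41) and VEGFA fell. This list held 5, 0, 0 and 2 calls without shHuR replicate 1, shHuR replicate 2, shControl replicate 1 and shControl replicate 2. Of 23 p53 targets, CDKN1A and TP53I3 were called, both higher. This is 8.70% of the list, near the 7.98% of all tested genes. TP53I3 was at 1.76 and 2.08 against 5.21 and 4.24 CPM (log2 fold change 1.29, adjusted p = 0.0112). Neither gene was a stable call. DESeq2's Wald test called 4 of the list, and with the GC and length offset in edgeR 2 were higher and 2 lower. Among 30 interferon-stimulated genes 0 were called by edgeR as fitted and by limma on log2(FPKM + 1), 1 was by DESeq2's Wald test and 1 with the GC and length offset in edgeR, and 5 had an unadjusted p under 0.05 in edgeR; TRIM25 had the smallest (adjusted p = 0.0696).

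Cell cycle genes gave calls in both directions. Of 47 genes of the G1/S transition, 0 were higher and 4 (8.51%) lower (POLD3, PRIM1, PCNA and CASP8AP2, -0.35 to -0.26), with 2, 0, 0 and 0 calls when the untreated libraries were left out in the order given for HIF targets. Of 51 genes of G2/M, 6 were higher and 3 lower (17.6%). CBX5, heterochromatin protein 1 alpha, and LBR, the lamin B receptor, were lower and stable, CBX5 at 597 and 588 CPM in shControl and 376 and 406 CPM in shHuR (log2 fold change -0.60, adjusted p = 0.000294). CDC20, an activator of the anaphase-promoting complex, rose from 78.6 and 73.2 to 98.9 and 114 CPM (log2 fold change 0.49, adjusted p = 0.0028). The G2/M list held 6, 3, 5 and 2 calls in the same order. Among the stable calls, and chosen here after their values were seen, were further regulators of G1. CDK6, a partner of cyclin D1, was at 325 and 323 CPM in shControl and 182 and 183 CPM in shHuR (log2 fold change -0.83, adjusted p = 0.000167). CCND2, cyclin D2, fell from 268 and 278 to 181 and 193 CPM (log2 fold change -0.54, adjusted p = 0.000384) and E2F5, a repressive E2F factor, from 29.1 and 26.4 to 15.7 and 13.3 CPM (log2 fold change -0.94, adjusted p = 0.00048). RB1, the retinoblastoma protein that cyclin D kinases phosphorylate, rose from 37.0 and 39.4 to 71.7 and 76.1 CPM (log2 fold change 0.95, adjusted p = 0.000294).

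Chosen in the same way, the nuclear noncoding RNAs MALAT1 and NEAT1 were lower in shHuR. MALAT1 was at 2026 and 2037 CPM in shControl and 1589.8 and 1556 CPM in shHuR (log2 fold change -0.37, adjusted p = 0.00393), and NEAT1, the scaffold of paraspeckles, fell from 97.3 and 96.4 to 65.5 and 68.3 CPM (log2 fold change -0.53, adjusted p = 0.00106). Among stable rises chosen likewise, CLTC, the clathrin heavy chain, was at 508 and 510.2 CPM in shControl and 743 and 726 CPM in shHuR (log2 fold change 0.53, adjusted p = 0.000246). TMED5, a cargo receptor of the early secretory pathway, rose from 95.6 and 99.5 to 158 and 165 CPM (log2 fold change 0.72, adjusted p = 0.0002), KDELR2, which returns chaperones to the endoplasmic reticulum, from 114 and 116 to 168 and 168 CPM (log2 fold change 0.55, adjusted p = 0.000301), and HYOU1, a chaperone of that compartment, from 169 and 163 to 221 and 224 CPM (log2 fold change 0.42, adjusted p = 0.00197). GNAI2, an inhibitory G protein subunit, was at 27.3 and 29.2 CPM in shControl and 52.9 and 56.8 CPM in shHuR (log2 fold change 0.96, adjusted p = 2.15e-05).

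Adhesion and matrix genes included the falls of ITGB1 and COL7A1. ITGB1 was the 1 gene called (2 were with library size alone as the scaling and with DESeq2's Wald test) among 25 tested genes with integrin names, a set that also took in a few integrin-binding proteins, and the median of that set was 0.15, opposite in sign to the fall of ITGB1. Without 1 untreated library that median was 0.07 to 0.18, the lowest without shHuR replicate 1. Of 47 collagens and laminins, 3 were lower and 1 higher (8.51%), with a median of -0.16, which was -0.06 without shControl replicate 1. COL7A1, the anchoring fibril collagen, fell from 15.7 and 15.0 to 8.02 and 8.76 CPM (log2 fold change -0.87, adjusted p = 0.0017) and was stable, LAMA3 and COL13A1 fell (-0.44 and -0.58), and COL2A1 rose by 0.68. Without shHuR replicate 1, 2 members were called, and without any other untreated library 1 was. Of 37 cadherins and protocadherins 0 were called by edgeR as fitted, DESeq2's Wald test or limma on log2(FPKM + 1), and 1 was, higher, in edgeR with the GC and length offset. In edgeR 6 had an unadjusted p under 0.05, and PCDH9 had the smallest (adjusted p = 0.0733).

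HEK293T cells express several neuronal genes. Of 33 genes of the neuronal cytoskeleton and synapse, 8 were higher and 2 lower (30.3%). SYP, synaptophysin, was at 19.8 and 22.5 CPM in shControl and 36.3 and 37.5 CPM in shHuR (log2 fold change 0.80, adjusted p = 0.000461), STMN3, a stathmin, rose from 48.7 and 45.7 to 64.2 and 65.8 CPM (log2 fold change 0.46, adjusted p = 0.00205), and INA and TUBB3 rose by 0.71 and 0.82. The neurofilament genes moved apart: NEFL, the light subunit, fell from 111 and 108 to 82.4 and 78.5 CPM (log2 fold change -0.45, adjusted p = 0.0012) while NEFM rose. The secretory granule protein gene CHGB rose from 1.03 and 0.501 to 2.5 and 2.1 CPM (log2 fold change 1.58, adjusted p = 0.0272), and CALCB fell (-0.70). In the order used for HIF targets, 6, 4, 6 and 3 of the list were called with a library left out. Among 34 septins and tubulin genes 6 were higher and 1 lower (20.6%). SEPT7, a septin with processed pseudogenes, was at 98.1 and 111 CPM in shControl and 200.1 and 177 CPM in shHuR (log2 fold change 0.85, adjusted p = 0.000167) and was the stable call of the list, which held 4, 2, 1 and 1 calls with a library left out. Of 35 HOX genes 0 were higher and 5 lower (14.3%), with a median of -0.24, and -0.15 to -0.37 with 1 untreated library left out. With the GC and length offset 10 were lower and the median was -0.34. HOXA10, whose counts include fractions, was at 98.2 and 94.0 CPM in shControl and 51.0 and 51.4 CPM in shHuR (log2 fold change -0.91, adjusted p = 2.15e-05) and alone kept its call without each library, and HOXA13, HOXC11, HOXB7 and HOXD10 fell (-0.53 to -0.47). Of 465 zinc finger genes with ZNF names, 34 were lower and 3 higher. The share called, 7.96%, was that of all tested genes (7.98%, with 3.5% higher and 4.48% lower), and the median was -0.11. ZNF91 was at 14.3 and 16.0 CPM in shControl and 7.61 and 7.30 CPM in shHuR (log2 fold change -1.03, adjusted p = 0.000913) and ZNF320 at 37.1 and 36.2 against 23.6 and 21.2 CPM (log2 fold change -0.71, adjusted p = 0.00148), both stable, and 13, 3, 4 and 5 of this list were called with a library left out. Over the 449 zinc finger genes that could be fitted with the GC and length offset, 30 were lower and 8 higher, and the median was -0.05.

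Further lists held few stable calls. The share called was 13.3% of the immediate early genes, 12.1% of Notch signalling and 4% of antigen presentation, beside 7.98% of all tested genes. Among 30 immediate early genes JUN, ATF3 and the signalling inhibitor SPRY2 (-0.46) were lower and IER5 was higher (0.36), and 1, 1, 1 and 2 were called with a library left out. In Notch signalling 2 of 33 genes were higher and 2 lower, among them the ligand JAG2 (37.7 and 35.7 against 28.9 and 29.7 CPM, log2 fold change -0.33, adjusted p = 0.0391) and the gamma-secretase subunit APH1A (133 and 135 against 189 and 174 CPM, log2 fold change 0.43, adjusted p = 0.00534), with 1, 1, 0 and 0 calls with a library left out. Of 25 genes of antigen presentation by MHC class I, FCGRT alone was called, while the median of the list was 0.26. Of 3 tested metallothioneins, MT1X was higher (3.31 and 3.04 against 6.06 and 5.50 CPM, log2 fold change 0.86, adjusted p = 0.021), a call that was lost without any 1 untreated library. Of 279 solute carriers 16 were higher and 11 lower (9.68%), with a median of 0.02. SLC39A10, a zinc importer, was at 209 and 216 CPM in shControl and 129 and 123 CPM in shHuR (log2 fold change -0.75, adjusted p = 0.0002), and SLC25A27 and SLC25A36, mitochondrial carriers, fell (-0.77 and -0.45). With SLC2A3 these were the 4 stable calls of the list. They are named for that reason, and no solute carrier called higher was stable. The solute carriers held 13, 7, 7 and 4 calls with a library left out.

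Sterol genes were called in both directions. Of 33 genes of cholesterol and fatty acid synthesis, 3 were higher and 4 lower (21.2%). INSIG1, which holds the sterol sensor in the endoplasmic reticulum, was at 121 and 112 CPM in shControl and 64.1 and 63.3 CPM in shHuR (log2 fold change -0.87, SE 0.0709, adjusted p = 2.15e-05). STARD4, a cholesterol carrier, fell from 27.3 and 28.9 to 19.4 and 17.1 CPM (log2 fold change -0.63, adjusted p = 0.00464) and MSMO1 fell (-0.43). On the other side, FADS2 rose by 0.47. INSIG1 was a stable call, and 5, 2, 4 and 2 of the list were called with a library left out. Of 46 genes of BMP and TGF-beta signalling 4 were higher and 2 lower (13%), among them the target genes ID3 (39.7 and 40.8 against 63.1 and 64.4 CPM, log2 fold change 0.66, adjusted p = 0.00457) and ID1, with 4, 1, 2 and 1 calls with a library left out. NBL1, a BMP antagonist, rose by 1.43 with fractional counts, and BMPR1B, a BMP receptor, fell (-0.51). FZD6, a Frizzled receptor (20.0 and 19.7 against 32.0 and 33.3 CPM, log2 fold change 0.72, adjusted p = 0.000407), was the 1 gene called of 39 of Wnt signalling and was stable.

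For genes of oxidative phosphorylation and the proteasome, the 2 shHuR libraries differed from each other by about as much as the lines did. Of 78 nuclear genes of oxidative phosphorylation 8 were higher and 0 lower (10.3%), with a median of 0.12. ATP5G1, an ATP synthase subunit gene with pseudogenes, was at 38.3 and 42.9 CPM in shControl and 80.8 and 76.4 CPM in shHuR (log2 fold change 0.95, adjusted p = 0.000294) and alone was stable. The medians of this list were 0.18 and 0.05 for shHuR replicates 1 and 2 against the shControl mean, and the 2 shHuR libraries differed from each other by 0.14. With 1 untreated library left out the fitted median was 0.05 to 0.19. Calls numbered 3, 4, 1 and 1 with a library left out, and with the GC and length offset 6 were higher and the median was 0.03. For the 35 proteasome subunits, 4 higher and 0 lower (11.4%) with a median of 0.13 (0.07 to 0.21 with 1 untreated library left out), the shHuR libraries differed by 0.16, and 0 were called without any 1 untreated library. Clustered histone genes, whose transcripts lack poly(A) tails and were counted here in total RNA depleted of ribosomal RNA, were higher in 13 of 50 cases and lower in 0 (26%), with a median of 0.19. HIST1H1D, a linker histone, was at 132 and 145 CPM in shControl and 213 and 216 CPM in shHuR (log2 fold change 0.63, adjusted p = 0.000856), and HIST3H2BB rose from 177 and 184 to 267 and 252 CPM (log2 fold change 0.52, adjusted p = 0.000567). HIST1H3F and HIST1H3J rose by 0.71 and 0.68. Between replicates this list differed by medians of 0.08 (shHuR) and -0.10 (shControl), and 8, 8, 5 and 6 members were called with a library left out. Of the 26 members that could be fitted with the GC and length offset, 7 were higher, and their median was 0.05. Box C/D small nucleolar RNAs had the lowest median of the lists with 10 or more genes tested, -0.65 over 72 genes. In them 0 were called by edgeR as fitted, DESeq2's Wald test or limma on log2(FPKM + 1), 1 was by edgeR with the replicate block, and 10 had an unadjusted p under 0.05 in edgeR. Without shHuR replicate 1, shHuR replicate 2, shControl replicate 1 and shControl replicate 2 their median was -1.18, -0.34, -1.05 and -0.06, and in the last case that of HIF targets was lower (-0.32). Their medians between replicates were 0.38 (shHuR) and -0.49 (shControl) in log2(CPM + 1), and the shHuR libraries lay at medians of -0.15 and -0.49 from the shControl mean on that scale, so the difference between the lines was not larger than the spread within a line. Of 116 H/ACA and Cajal body RNAs, SCARNA6 alone was called, lower (log2 fold change -0.33, adjusted p = 0.0435), by edgeR as fitted. Without the untreated libraries in the same order 1, 0, 3 and 0 of them were called, and the median of -0.29 became -0.56, -0.05, -0.62 and 0.10. Of 77 cytosolic ribosomal protein genes 2 were lower (2.6%), RPL12 (-0.27) and RPL5 (-0.24), with a median of -0.05 (-0.12 to 0.004 with 1 untreated library left out); with the GC and length offset 14 were lower and the median was -0.14.

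**Figure D4:**
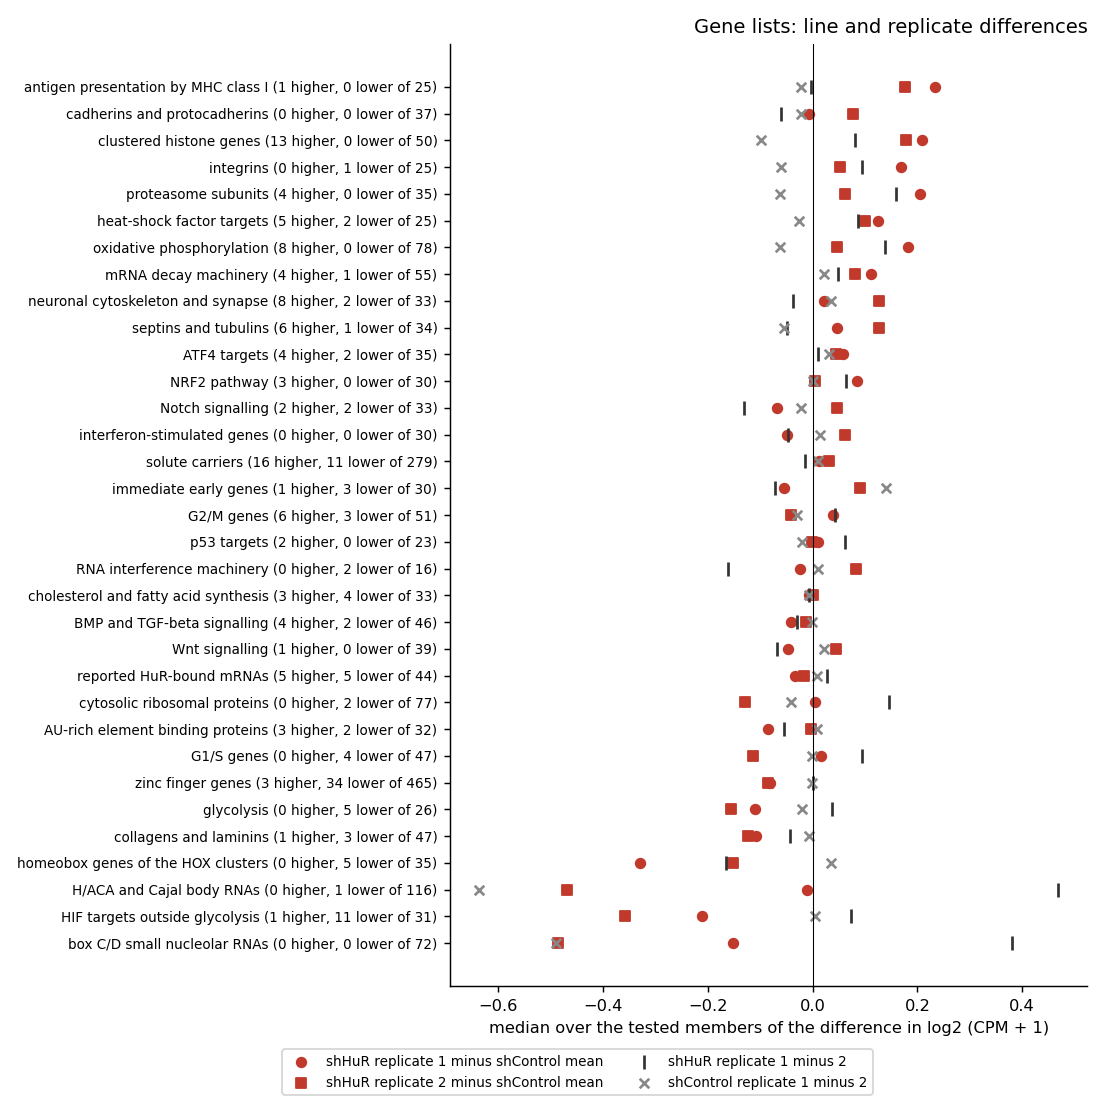
Median over the tested members of each gene list of the difference in log2(CPM + 1), for each shHuR library against the mean of the shControl libraries (red circle, replicate 1; red square, replicate 2), and for replicate 1 against replicate 2 of shHuR (black bar) and of shControl (grey cross). HIF targets and zinc finger genes have both red symbols below 0 and both replicate differences closer to 0, whereas for the box C/D and H/ACA RNAs the replicate differences span as wide a range as the red symbols.

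Sequence features of the 3′ UTR were tabulated for 14122 tested genes with a GENCODE 29 UTR. The letters searched were ATTTA, the core of AU-rich elements, on the transcript's strand, with overlaps counted. In the 3894 genes with 0 ATTTA, 4.85% were higher and 2.23% lower, with a median log2 fold change of 0.07. In the 5431 genes with 4 or more, 2.38% were higher and 7.70% lower, with a median of -0.06. Genes with many ATTTA were thus called lower more often than genes with 0, as a description of these counts. Runs of TTTTTTT were searched as well. Among genes with 0 such runs 4.24% were higher and 2.89% lower, and among those with 4 or more 2.11% and 9.26%. The same gradient followed UTR length and base composition. From the quartile of genes with the shortest UTRs to that with the longest, 2.86%, 3.46%, 5.30% and 7.28% were called lower. From the lowest to the highest quartile of 3′ UTR GC content the medians were -0.08, -0.03, 0.06 and 0.10, and the share called lower went from 8.58% to 1.84%. Replicates of 1 line differed along the same axis: shHuR replicate 1 minus replicate 2 had medians of 0.07 in the lowest and -0.07 in the highest GC quartile, and the shControl pair -0.02 and 0.04. Within the lowest GC quartile, 3.46% of the 405 genes with 0 ATTTA and 10.7% of the 2109 with 4 or more were called lower. The same shares were 3.17% and 7.14% in the second quartile, 1.60% and 3.57% in the third and, in the opposite order, 2.13% and 1.27% in the highest, where 158 genes had 4 or more. When the fit was given an offset for transcript GC content and length, the medians by ATTTA class were -0.01 to 0.01, and those by GC quartile -0.01 to 0.01. The offset is a curve fitted to each library's own values along transcript GC content and length. Medians this close to 0 are therefore largely fixed in advance. A line difference that follows base composition is removed with the rest. A count of pentamers can grow with UTR length, and the shares within GC quartiles were not split by length. Whether the ATTTA gradient is separate from base composition or UTR length was not tested. Under that offset 911 of 1211 called genes that could be fitted kept their call.

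**Figure D5:**
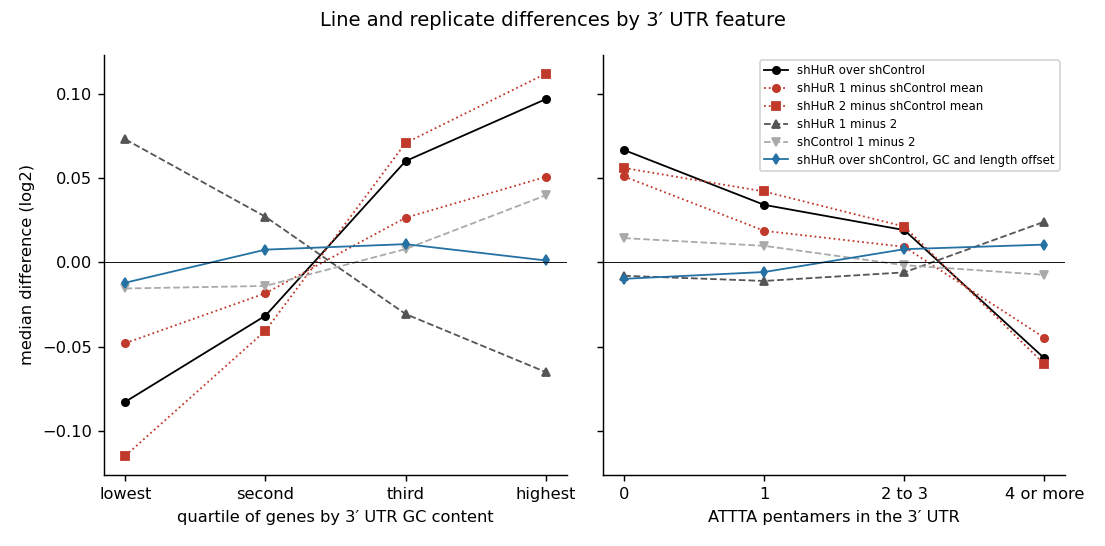
Median log2 differences by quartile of 3′ UTR GC content (left) and by number of ATTTA pentamers (right), for shHuR over shControl as fitted (black), for each shHuR library against the shControl mean (red), between replicates of a line (grey, dashed) and with an offset for transcript GC content and length (blue). The black line runs from -0.08 to 0.10 across GC quartiles, and the shHuR replicates differ by up to 0.07 in the end quartiles. The blue line stays between -0.01 and 0.01, which is largely fixed in advance, as the offset is fitted to each library along transcript GC content.

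The hairpin's guide could pair through its seed with other transcripts. The 7 letters AGTTTGC, read on the transcript's strand, stood in the 3′ UTR of 1756 of the 14122 genes (12.4%). Calls made up 3.25% (higher) and 6.66% (lower) of these, beside 3.94% and 4.45% of the 12366 without the letters. From the quartile of genes with the shortest UTRs to that with the longest, 3.33%, 4.32%, 6.40% and 7.37% of the genes with the letters were lower, beside 2.85%, 3.41%, 5.13% and 7.24% of those without. The differences within quartiles were not tested. Of the 11 largest falls with a 3′ UTR, 1 held them (ITGB1), as did 1 of the 12 largest rises (NEFM). A match of letters is a description of the UTR and does not show that the guide acted there.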

How the data were processed

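Total RNA was depleted of ribosomal RNA and sequenced from strand-marking libraries as single-end reads, per the labels' protocols, with an RQN of 10.0 for all samples. The tools named are cutadapt 1.8, Bowtie2 2.2, TopHat2 2.1 and Cufflinks 2.2, with the build GRCh37 (hg19), per the submitters' processing notes; the counting program is not given in the sources used here. The authors deposited estimated counts per gene symbol, of which 2.25% were not whole (701 genes) and were rounded, and FPKM values, which served alternatives alone. Genes tested numbered 16005 after filterByExpr (minimum count 10). The main test was the quasi-likelihood test of edgeR 4.0.16 (R 4.3.3) on TMM-scaled counts over 6 group means of 12 libraries (2 each, 6 residual degrees of freedom), contrasting the untreated groups, with Benjamini-Hochberg adjustment at 0.05. The biological coefficient of variation was 8.32%. CPM values use the scaled library sizes. SE was taken from each gene's log2 fold change and F statistic (their ratio, with the root of F). A level of 3 counts, the limit that a count of 0 allows, was 0.102 to 0.122 CPM in the untreated libraries; it covers counting error only.

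A set of 119 tested genes to be named was chosen by rule. It holds ELAVL1 and the 12 largest rises and falls among called genes with at least 5 CPM in the higher line, separate lines and whole deposited counts. From each of 35 gene lists it takes the 4 largest called changes, or the smallest p where a list had none. ELAVL2, HNRNPD, ZFP36L1, KHSRP and TIA1 complete it, with the untested ELAVL3 and ELAVL4 given beside it. For many lists the text gives only some of these changes, so its examples do not follow the rule in full. Other genes in the text are the most abundant HEK293T marker, further called members of these lists, members given for reference, or stable calls. The comparison, members and lists were chosen with earlier results of these data known. Positions, UTRs and GC content are from GENCODE 29 on GRCh38, by symbol, which is not the authors' build; 89.1% of tested symbols matched a coding transcript.

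Alternatives were DESeq2 1.42.0, its size factors, library size alone, other filters, the replicate number as a block, the 4 untreated libraries only, limma 3.58.1 with a trend on log2(FPKM + 1) and log2(FPKM + 0.1), whole-count genes only and each library left out. An offset for GC content and length, a block within the 4 untreated libraries and the crossed pairing were chosen after seeing the data. In simulated counts over 16005 genes for the untreated comparison, the test recovered 37.5% of changes of 0.5, 74.6% of 1 and 89.0% of 2 (log2), with 2 false calls among 15805 unchanged genes. The simulated counts were drawn for each gene on its own, from the spread that the same fit had estimated. They held no difference between replicates shared by many genes, such as that along GC content. The number of false calls in the real libraries is therefore not given by this simulation.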

Additional observations from a re-analysis of the deposited data

How the results depend on the processing

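The number of called genes (1277, with 560 higher and 717 lower) was 1577 with DESeq2's Wald test, 1241 with its size factors in edgeR, 1155 with library size alone, 1390 at a mean CPM of at least 1, 1681 with the 4 untreated libraries only, 1047 and 1058 with limma on log2(FPKM + 1) and log2(FPKM + 0.1), 1305 with whole-count genes only and 1373 with the GC and length offset. It moved by over 1.5 times without a filter on low counts, to 1949 (946 higher), and with limma on log2(FPKM + 1) without a filter, to 726 (357 higher, 369 lower). With each of the 12 libraries left out in turn, 242 to 2055 genes were called, 85 to 964 higher and 139 to 1091 lower. The highest numbers came without shControl HNE replicate 1 or 2, which enter the filter, the scaling and the estimate of spread but not the contrast. Without shHuR HNE replicate 1 or 2 fewer genes were called than in the main fit. Leaving out a library of an untreated group leaves 1, assumed to vary like the other groups; ELAVL1 then differed by -0.33, -0.33, -0.29 and -0.36 without shHuR replicate 1, shHuR replicate 2, shControl replicate 1 and shControl replicate 2, no longer called. Of 113 called genes among the named, 72, 46, 49 and 46 kept the call in that order. No called gene changed sign under any alternative, which separate libraries fix in advance for those that only leave one out. TIA1, not called, went from -0.13 to 0.013 with the GC and length offset. A pairing by replicate number was not seen: the replicate 1 deviations of the 2 untreated groups correlated at -0.16 across genes. Among all pairs of groups this correlation ran from -0.23 to 0.28, so -0.16 does not show a crossed pairing either. The replicate block gave 1058 calls (447 higher, 611 lower), of which 1034 were among the 1277. With the numbers crossed in the 4 untreated libraries, a setting chosen after the data were seen, 3472 genes were called, 1675 higher and 1797 lower. The causes of these shifts were not tested. By the self-test, a change of 0.5 (log2) was recovered for 37.5% of the genes changed by that much; recovery by expression level was not tested.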

Other observations

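By chromosome (RefSeq positions by symbol, 96.8% of tested genes), chromosome 17 had 6.99% of 944 genes called higher and 2.54% lower, with a median log2 fold change of 0.08, and chromosome 20 had 7.18% and 2.39% of 418. On chromosome 18 the shares were 1.39% higher and 9.72% lower of 216 genes, with a median of -0.10, and on chromosome 4 they were 2.64% and 7.56% of 569. Median transcript GC content was 55.0% on chromosome 17 and 43.5% on chromosome 18, and with the GC and length offset the medians of these chromosomes were 0.03 and -0.04. These values are descriptions, with no test, and the chromosomes were picked after their values were seen.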
